A study of Saccharomyces cerevisiae with 4 samples.

Results

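The 10 genes described here encode the enzymes that turn pyruvate into ethanol in baker's yeast and their close relatives. They are the pyruvate decarboxylase genes PDC1 (YLR044C), PDC5 (YLR134W) and PDC6 (YGR087C) and the alcohol dehydrogenase genes ADH1 (YOL086C), ADH2 (YMR303C), ADH3 (YMR083W), ADH5 (YBR145W), ADH6 (YMR318C), ADH7 (YCR105W) and SFA1 (YDL168W). They were chosen by name, as the enzymes of these reactions and with earlier results of these data known, from the 6209 genes of the count table. Poly(A)-selected RNA was sequenced from BY4741, a haploid laboratory strain of mating type a whose genotype is given as MATa his3 leu2 met15 ura3 and which both groups share. Untreated cells in YPD medium at 28 °C were compared with cells exposed to 3 µg/mL of thiolutin, a dithiolopyrrolone antibiotic known to block transcription, for 3 h. The labels place the cells in exponential growth, whereas the study's methods start from overnight cultures, and no vehicle is named for the untreated cells. Each condition had 3 replicates by the submitters' design text and 2 experiments by the study's methods, and 2 libraries per condition were analysed here.

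In fermentation, pyruvate decarboxylase removes carbon dioxide from pyruvate to give acetaldehyde, and alcohol dehydrogenase reduces acetaldehyde to ethanol, which returns NADH to NAD+ so that glycolysis can go on. Yeast holds several isoenzymes for each step. They differ in compartment, in the use of NADH or NADPH and in the aldehydes they accept, and the same fold of dehydrogenase also reduces the aldehydes that come from amino acids, the fusel aldehydes, or from damage to lipids and other molecules.

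Reads counted in genes ranged from 17038991 to 30205335 per library. Counts were scaled by TMM, which sets library sizes without the genes of extreme values, and compared in edgeR with its quasi-likelihood test. A gene was called higher or lower with thiolutin at a Benjamini-Hochberg adjusted p under 0.05 over the 5937 genes that passed a filter on low counts, and all 10 enzyme genes passed it. Beyond sampling noise the untreated pair varied by 16.7% and the thiolutin pair by 2.31%, and the 2 thiolutin libraries still differed by more than that noise (chi-square per degree of freedom 2.57). When 1 thiolutin library is left out, the spread of the fit comes from the more variable untreated pair alone. A call lost there need not mean that the change itself depended on that library. When 1 untreated library is left out, the spread comes from the less variable thiolutin pair alone. A call gained there need not mean that the gene changed. Over all genes tested the median log2 fold change was -0.04 on the TMM scale and -0.63 with total counts as the scale. Of the markers of mating type a, STE2, the receptor of the alpha pheromone, had 16621 and 14538 normalized counts in the untreated and 3998 and 3796 in the thiolutin libraries. MFA2, BAR1 and AGA2 were lower as well (log2 fold changes -1.81, -1.43 and -1.85). MFA1 had 9387 and 4751 normalized counts without and 9048 and 9044 with thiolutin and did not pass the test. MF(ALPHA)1, which makes the alpha pheromone, had 9.98 and 5.70 and then 30.4 and 21.0. Of the other markers of type alpha, STE3 and MF(ALPHA)2 had 79.8 to 168 normalized counts per library, and SAG1, the alpha agglutinin, had 979 and 985 without and 782 and 753 with thiolutin, above the a marker ASG7 with 912 and 534 and then 387 and 404. HIS3, mutated in the strain, still had 1551 to 2274 normalized counts without and 962 and 1050 with thiolutin, and the other mutated genes were not analysed here. The values below are relative amounts of poly(A) RNA within a library, so an overall change in RNA per cell cannot be seen in them. A gene called higher rose relative to the other genes, and whether its RNA per cell rose was not tested.

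With thiolutin 8 of the 10 genes were higher, 1 was lower and 1 did not pass the test. Of all genes tested 31.2% were called higher, 32.4% lower and 63.6% either. Of the 10 genes 6 were higher by at least 1 on the log2 scale, as were 15.7% of all genes tested. Their median log2 fold change was 1.61, against -0.04 for all genes tested, and 1.02 with total counts as the scale, against -0.63. The 10 genes together took 2.77% and 2.71% of all reads in the untreated and 4.03% and 3.92% in the thiolutin libraries. In all 10 genes the normalized counts of the untreated and the thiolutin libraries did not overlap, as was the case for 84.6% of all genes tested. With 2 libraries a group, an exact test of a single gene cannot go below p = 0.333, so the tests lean on the spread shared across genes.

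**Figure D1:**
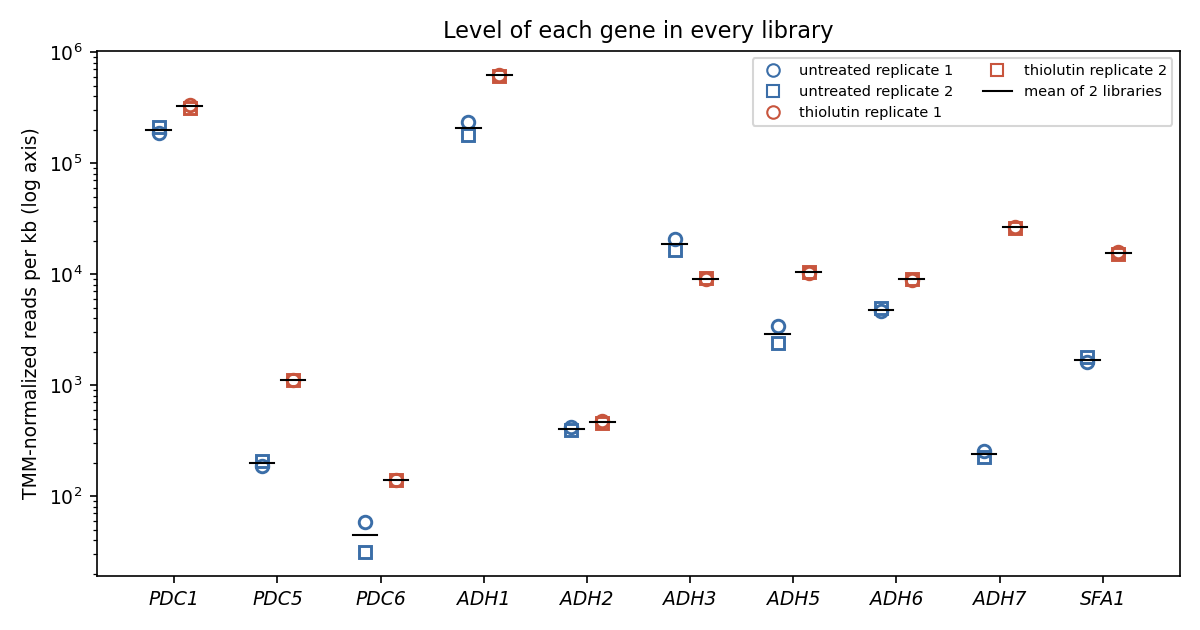
TMM-normalized reads per kb of coding sequence (log axis) of the 10 enzyme genes, with 1 symbol per library, blue for untreated, red for thiolutin, and a line at the mean of 2 libraries. ADH7 moved from 256 and 226 to 26688 and 26354 reads per kb, ADH3 from 20670 and 16519 down to 9081 and 9199, and ADH2 stayed between 392 and 473.

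PDC1, the main pyruvate decarboxylase and one of the most counted genes of the table, had 314006 and 357953 normalized counts in the untreated and 564479 and 538292 in the thiolutin libraries. Both thiolutin values lay above both untreated values, and PDC1 was 1.64-fold higher (log2 fold change 0.71 ± 0.13 SE, edgeR adjusted p = 0.00663). The call was lost without either thiolutin library, although the log2 fold change stayed at 0.68 without replicate 1 and 0.75 without replicate 2. It also depended on the scale, since with total counts the log2 fold change was 0.13 (edgeR adjusted p = 0.403). PDC1 lies at chrXII:232390-234081 on the minus strand of build R64, and like the other 9 genes it is annotated there as a single coding segment with no intron.

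PDC5, a second decarboxylase that is known to be raised when PDC1 is lost or thiamine is short, had 316 and 353 normalized counts without and 1879 and 1905 with thiolutin. Every thiolutin value was more than 5 times every untreated one. The gene was 5.65-fold higher (log2 fold change 2.50 ± 0.11 SE, edgeR adjusted p = 0.000131), rank 223 among the 5937 genes ordered from the largest increase. PDC5 lies at chrXII:410723-412414 on the plus strand. PDC6, a minor decarboxylase known for its low content of sulfur amino acids and for induction when sulfur is scarce, had 98.4 and 53.4 normalized counts in the untreated libraries, from 138 and 75 reads, and 237 and 236 with thiolutin. The untreated libraries differed from each other by far more than the thiolutin ones, and the log2 fold change was 1.64 ± 0.32 SE (edgeR adjusted p = 0.00845). It was 2.15 without untreated replicate 1 and 1.27 without untreated replicate 2. PDC6 lies at chrVII:651290-652981 on the minus strand.

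The coding sequences of PDC1 and PDC5 are 87.2% identical, and PDC6 is 75.0% identical to PDC1 and 73.5% to PDC5. The sources used here do not give how reads that match more than 1 gene were counted. The longest run shared by PDC1 and PDC5 is 65 bases. The stretch of 150 coding bases that holds it, from the R64 genome of RefSeq (chrXII:233632-233781, minus strand, and chrXII:411023-411172, plus strand), is shown with the 8 differing bases in capitals.
PDC1: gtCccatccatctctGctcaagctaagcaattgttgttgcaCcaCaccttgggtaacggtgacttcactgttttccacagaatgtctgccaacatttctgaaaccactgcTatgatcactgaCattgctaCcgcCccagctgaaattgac
PDC5: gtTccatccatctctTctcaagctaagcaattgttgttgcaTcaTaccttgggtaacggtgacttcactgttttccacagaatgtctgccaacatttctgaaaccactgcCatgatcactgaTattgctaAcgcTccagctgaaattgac
PDC5 reads were 0.101% and 0.0987% of PDC1 reads in the untreated and 0.333% and 0.354% in the thiolutin libraries. PDC6 reads were 0.0313% and 0.0149% and then 0.0420% and 0.0438%. The PDC5 share was over 3 times as large in either thiolutin library as in either untreated one. Among the 3 decarboxylase genes PDC1 nevertheless held 99.9% of the reads per kb in each untreated and 99.6% in each thiolutin library.

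ADH1, the cytosolic enzyme that makes most of the ethanol, had 247090 and 190070 normalized counts without and 659127 and 643058 with thiolutin. Both thiolutin values were far above both untreated ones, and ADH1 was 2.98-fold higher (log2 fold change 1.57 ± 0.17 SE, edgeR adjusted p = 0.00118). ADH2, the glucose-repressed isoenzyme that oxidizes ethanol, had 442 and 410 normalized counts without and 495 and 480 with thiolutin. Its groups did not overlap, but the log2 fold change of 0.19 ± 0.12 SE did not pass the test (edgeR adjusted p = 0.198). The direction of ADH2 depended on the scale. With total counts its log2 fold change was -0.39 and passed the test (edgeR adjusted p = 0.0255). On the TMM scale it was 0.26 without untreated replicate 1 and 0.14 without untreated replicate 2. ADH1 lies at chrXV:159548-160594 and ADH2 at chrXIII:873291-874337, both on the minus strand.

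ADH1 and ADH2 are the closest pair among the 7 dehydrogenase genes, with 88.8% identity and an unbroken shared run of 189 bases at coding positions 193 to 381. Of the 948 windows of 100 bases in ADH2, 90 (9.49%) occur unchanged in ADH1. A stretch of 270 coding bases around that run (RefSeq, R64, chrXV:160175-160444 and chrXIII:873918-874187, both minus strand) is shown with its 6 differing bases in capitals, since reads from within the run fit both genes.
ADH1: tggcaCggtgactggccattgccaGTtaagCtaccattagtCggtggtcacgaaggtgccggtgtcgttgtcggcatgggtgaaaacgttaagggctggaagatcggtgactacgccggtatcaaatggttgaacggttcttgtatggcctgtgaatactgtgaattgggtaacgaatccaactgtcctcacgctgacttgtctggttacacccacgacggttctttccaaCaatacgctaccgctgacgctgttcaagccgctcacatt
ADH2: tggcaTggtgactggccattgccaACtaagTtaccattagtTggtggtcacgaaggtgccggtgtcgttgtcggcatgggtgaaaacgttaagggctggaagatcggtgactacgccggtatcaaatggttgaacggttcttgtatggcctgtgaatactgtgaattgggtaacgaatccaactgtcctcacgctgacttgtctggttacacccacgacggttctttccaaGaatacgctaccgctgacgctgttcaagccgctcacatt
ADH2 reads were 0.179% and 0.216% of ADH1 reads in the untreated and 0.0751% and 0.0747% in the thiolutin libraries. The part of the ADH2 counts that came from ADH1 was not tested, and the ADH2 values are uncertain for that reason. The other 20 pairs of dehydrogenase genes were 47.3% to 73.5% identical, with longest shared runs of 10 to 23 bases.

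ADH3, the mitochondrial isoenzyme that can pass reducing equivalents between matrix and cytosol with ethanol and acetaldehyde, was the only one of the 10 called lower. It had 23316 and 18633 normalized counts without and 10244 and 10376 with thiolutin. Both thiolutin values lay below both untreated ones. ADH3 was 2.03-fold lower (log2 fold change -1.02 ± 0.14 SE, edgeR adjusted p = 0.00232), and on the scale of total counts the value was -1.61. ADH3 lies at chrXIII:434788-435915 on the plus strand. Its coding sequence carries 81 bases at the start that ADH1 lacks, and behind them the 2 genes align without a gap at 75.0% identity. These extra bases, where the signal that directs the protein into mitochondria lies, are in capitals in the first 111 bases of ADH3 (chrXIII:434788-434898, plus strand), above the first 30 of ADH1 (chrXV:160565-160594, minus strand).
ADH3: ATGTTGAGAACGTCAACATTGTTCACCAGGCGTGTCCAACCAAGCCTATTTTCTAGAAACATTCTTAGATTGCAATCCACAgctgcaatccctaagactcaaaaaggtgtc
ADH1: atgtctatcccagaaactcaaaaaggtgtt
Per kb of coding sequence, ADH1 had 11.4 and 10.99 times the reads of ADH3 in the untreated and 69.3 and 66.8 times in the thiolutin libraries. A ratio within a library does not depend on how libraries are scaled, and the groups did not overlap.

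ADH5, a cytosolic isoenzyme of the ADH1 kind that adds little to ethanol formation, had 3578 and 2525 normalized counts without and 10885 and 11116 with thiolutin. Both thiolutin values were over 3 times the larger untreated one. It was 3.60-fold higher (log2 fold change 1.85 ± 0.19 SE, edgeR adjusted p = 0.000995). ADH5 lies at chrII:533762-534817 on the plus strand. Its reads per kb were 0.164 and 0.145 times those of ADH3 without and 1.14 and 1.14 times with thiolutin, so that the order of these genes turned around.

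SFA1 encodes an enzyme with a dual role, which oxidizes the adduct of formaldehyde and glutathione and also reduces long-chain and fusel aldehydes. It had 1869 and 2089 normalized counts without and 18432 and 17724 with thiolutin. The thiolutin values were all more than 8 times the untreated ones, and SFA1 was 9.13-fold higher (log2 fold change 3.19 ± 0.11 SE, edgeR adjusted p = 9.36e-05), rank 121 of 5937. SFA1 lies at chrIV:159604-160764 on the plus strand.

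ADH6 and ADH7 encode the NADPH-dependent dehydrogenases of broad range, which reduce medium-chain and aromatic aldehydes. ADH6 had 5069 and 5349 normalized counts without and 9693 and 9803 with thiolutin. The pairs were tight and clearly apart, with ADH6 1.87-fold higher (log2 fold change 0.90 ± 0.09 SE, edgeR adjusted p = 0.000999). With total counts as the scale its log2 fold change was 0.31 (adjusted p = 0.0280). ADH7 had 278 and 245 normalized counts without and 28984 and 28620 with thiolutin, from 390 and 344 and then 15273 and 19076 reads. This was the largest change of the 10, at 110.1-fold (log2 fold change 6.78 ± 0.13 SE, edgeR adjusted p = 6.4e-05), and rank 7 of all 5937 genes. Per kb ADH7 had 0.0547 and 0.0457 times the reads of ADH6 in the untreated libraries and 2.98 and 2.91 times in the thiolutin libraries. The 2 coding sequences are 66.3% identical and share no run over 12 bases. ADH6 lies at chrXIII:911061-912143 on the minus strand, 12288 bases from the right end of its chromosome, and ADH7 at chrIII:309070-310155 on the plus strand, 6465 bases from the right end.

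**Figure D2:**
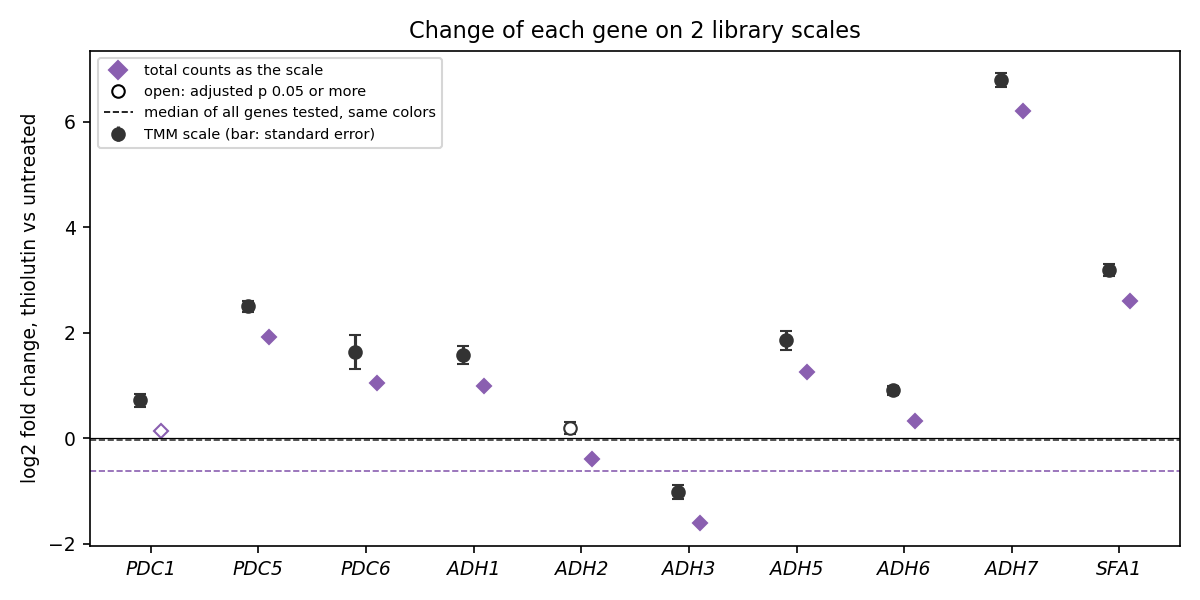
Log2 fold change, thiolutin against untreated, of the 10 enzyme genes on the TMM scale (black, bars are standard errors) and with total counts as the scale (purple), open where the adjusted p was 0.05 or more, with dashed lines at the median of all genes tested (-0.04 and -0.63). All 10 values are lower with total counts, where PDC1 is at 0.13 and ADH2 at -0.39, while ADH7 is at 6.78 and 6.19.

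Ordered by reads per kb, ADH1 and PDC1 came first in every library but changed places between the untreated ones, with ADH1 at 1.27 and 0.858 times PDC1. In both thiolutin libraries ADH1 led, at 1.89 and 1.93 times PDC1. Below them the untreated order was the same in both libraries, from ADH3 through ADH6, ADH5, SFA1, ADH2, ADH7 and PDC5 to PDC6. In both thiolutin libraries the order behind PDC1 was ADH7, SFA1, ADH5, ADH3, ADH6, PDC5, ADH2 and PDC6. ADH3, at 9081 and 9199 reads per kb, and ADH6, at 8951 and 9052, were next to each other there, with ADH3 above ADH6 in both libraries. ADH7 went from place 8 to place 3.

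Shares of the reads per kb of all 7 dehydrogenase genes show the same shift inside each library. ADH1 held 88.4% and 87.4% of them without and 89.8% and 89.7% with thiolutin. ADH3 went from 7.74% and 7.95% to 1.30% and 1.34%. ADH7 went from 0.0958% and 0.109% to 3.81% and 3.85%, and thus from below every other dehydrogenase gene to second after ADH1. SFA1 held 0.603% and 0.866% without and 2.27% and 2.23% with thiolutin. The share of ADH6 was 1.75% and 2.38% without and 1.28% and 1.32% with thiolutin, although its normalized count was higher. For ADH5 it was 1.27% and 1.15% without and 1.47% and 1.54% with thiolutin, and for ADH2 0.158% and 0.189% without and 0.0675% and 0.0669% with. None of these shares overlapped between the groups, and they were not tested, since 2 against 2 libraries cannot go below p = 0.333 in an exact test.

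**Figure D3:**
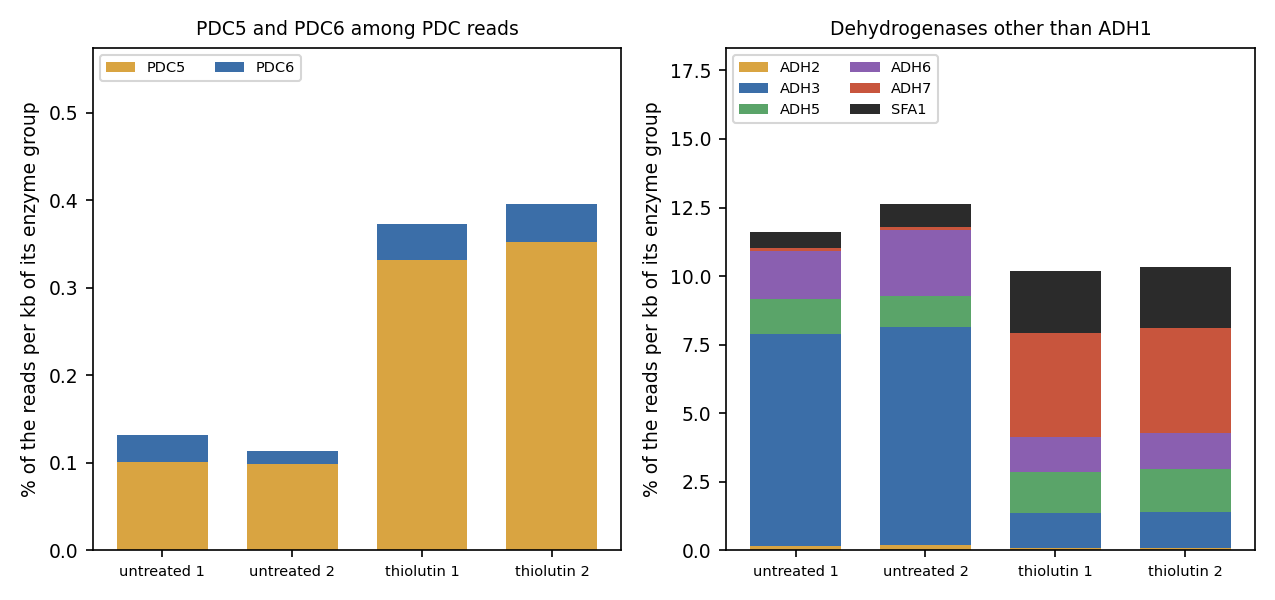
Shares (%) of the reads per kb of each enzyme group in each of the 4 libraries, with PDC5 and PDC6 among the decarboxylases (left) and the 6 dehydrogenases other than ADH1 (right), stacked from 0. ADH3 fills most of the untreated bars (7.74% and 7.95%), and ADH7 (3.81% and 3.85%) and SFA1 (2.27% and 2.23%) most of the thiolutin bars.

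Upstream sequence was searched for short motifs in the 500 bases before each start codon, on both strands, over 5916 genes of the R64 annotation. The motifs were chosen after the values had been seen, and a match is a description of the letters, not of binding. TTAGTCA, a variant of the site of the oxidative stress regulator Yap1, stood before 6.00% of all genes and, of the 10, before ADH6 (268 to 262 bases before the start codon, on the minus strand of the gene) and ADH7 (405 to 399, plus strand). TTACTAA, the other Yap1 form searched, occurred before 11.9% of all genes and before none of the 10. The stretches around the matches, 250 bases each (RefSeq, R64, chrIII:308620-308869, plus strand, and chrXIII:912194-912443, minus strand), have the match in capitals, and they are shown because these are the only 2 of the 10 genes that hold it.
ADH7: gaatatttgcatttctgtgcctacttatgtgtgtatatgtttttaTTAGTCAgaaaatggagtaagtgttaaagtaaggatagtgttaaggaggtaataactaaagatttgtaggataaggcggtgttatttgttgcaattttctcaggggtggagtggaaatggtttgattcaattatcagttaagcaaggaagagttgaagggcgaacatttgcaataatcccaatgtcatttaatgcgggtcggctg
ADH6: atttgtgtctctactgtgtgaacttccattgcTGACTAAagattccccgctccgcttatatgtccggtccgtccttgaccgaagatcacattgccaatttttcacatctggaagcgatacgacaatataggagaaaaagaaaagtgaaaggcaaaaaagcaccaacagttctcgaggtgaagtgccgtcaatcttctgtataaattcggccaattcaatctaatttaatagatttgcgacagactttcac
ADH6 and ADH7 thus share the motif while their log2 fold changes were 0.90 and 6.78. GAANNTTC, the core of the heat shock factor site, stood before PDC5, PDC6, ADH1 and ADH7 and before 19.1% of all genes. AGGGG, bound by the stress factors Msn2 and Msn4, stood before PDC1, PDC5, ADH1, ADH5, ADH7 and SFA1 and before 34.2% of all genes. CTTCC, bound by the glycolytic activator Gcr1, stood before ADH1, ADH3, ADH5, ADH6, ADH7 and SFA1 and before 65.6% of all genes. In ADH1 it had 5 matches, of which 2 overlap by 1 base. None of the 10 held ACCTTNAAGGT for Zap1 (0.152% of all genes), GGTGGCAAA for Rpn4 (1.67%), CCGCGG for Pdr1 and Pdr3 (3.18%) or TTGGGG for Adr1 (9.91%) in this window. Only these exact letters were searched. Other forms of the sites, for Adr1 as for the rest, were not, so a lack of sites for these factors does not follow.

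The genes next to the 10 were compared, since reads that run past a gene's end can be counted for its neighbour. Of the 2 neighbours of each gene, those of PDC1, PDC5, PDC6 and ADH1, which were all higher, were lower or did not pass the test. They were TRX1 (log2 fold change 0.11, not past the test) and STU2 (-0.28) beside PDC1, CKI1 (0.16, not past the test) and SLX4 (-0.53) beside PDC5, PIL1 (-0.45) and CTT1 (-0.64, not past the test) beside PDC6, and MHF1 (-0.62), 102 bases from ADH1 on the opposite strand, and YOL085C (-0.06, not past the test). Beside ADH5, MRPS9 was lower (-0.50) and YBR144C (1.19) did not pass the test. The lower calls of STU2, SLX4, PIL1, MHF1 and MRPS9 were all lost without either thiolutin library, where their log2 fold changes were between -0.74 and -0.26. On the scale of total counts they were between -1.21 and -0.87 and all passed the test (edgeR adjusted p = 0.00041 to 0.0011).

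ADH2 lies between YME2 (-1.22) and UBP15 (-0.83), both called lower. ADH3, itself lower, has YMR082C on one side, which was called higher (log2 fold change 1.63, edgeR adjusted p = 0.0398) on 6 to 29 normalized counts per library, and YMR084W (0.30, not past the test) on the other. Without either thiolutin library the call of YMR082C was lost (adjusted p = 0.244 and 0.0548). YMR317W, 274 bases downstream of ADH6 on the other strand, was called higher (0.32, edgeR adjusted p = 0.0308), and FET4 (0.16) on the other side did not pass the test. The call of YMR317W was lost without either thiolutin library (adjusted p = 0.177 and 0.303), and on the scale of total counts it turned to -0.26 (adjusted p = 0.0498). NRP1, 230 bases downstream of SFA1 on the other strand, had a log2 fold change of 0.66 (edgeR adjusted p = 0.0283), and UGX2 (0.61), upstream of SFA1, did not pass the test. On the scale of total counts NRP1 was at 0.07 and did not pass the test (edgeR adjusted p = 0.745). The call of NRP1 was lost without either thiolutin library, where its log2 fold change was 0.71 and 0.61. Without untreated replicate 1 or 2 the value of NRP1 was 0.43 and 0.95.

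ADH7 was the exception, with raised genes on both sides. PAU3, a member of the seripauperin family of cell wall proteins, 894 bases upstream, had 39.2 and 38.5 normalized counts without and 438 and 464 with thiolutin (log2 fold change 3.53 ± 0.16 SE, edgeR adjusted p = 0.000157). RDS1, a zinc cluster transcription factor 802 bases downstream, had a log2 fold change of 1.15. ADH7 and all 8 other genes tested within 15 kb of it were called higher, while 31.2% of all genes were. On the scale of total counts YCR099C, YCR101C and EMA35 did not pass the test (edgeR adjusted p = 0.0962, 0.178 and 0.749), and EMA35 was at -0.05. YCR102C, a relative of ADH7 in the same superfamily of medium-chain dehydrogenases, had 190 and 265 normalized counts without and 11585 and 12495 with thiolutin (log2 fold change 5.72 ± 0.21 SE). GIT1, a transporter of glycerophosphoinositol, was at 3.10 and AAD3, a putative aryl-alcohol dehydrogenase, at 1.69. The 3 smallest changes, of YCR099C (0.91), YCR101C (0.80) and EMA35 (0.54), lost their calls when thiolutin replicate 2, thiolutin replicate 1 and either of them was left out (edgeR adjusted p = 0.0631, 0.0552 and 0.101 to 0.129).

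**Figure D4:**
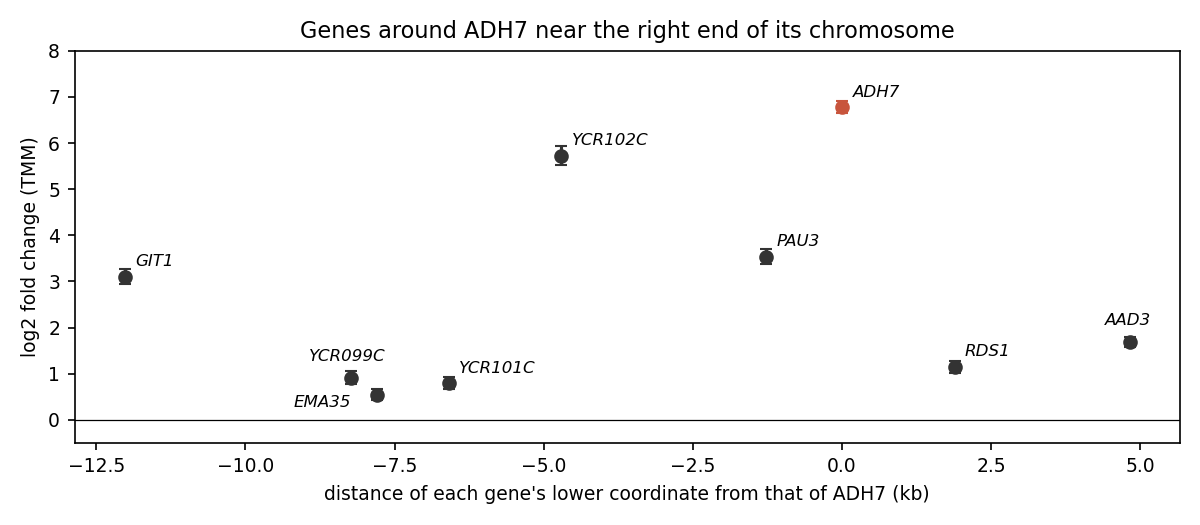
Log2 fold change (TMM scale, bars are standard errors) of ADH7 and the 8 other genes tested within 15 kb of it, by the distance of each gene's lower coordinate from that of ADH7 in kb. ADH7 (6.78) and YCR102C (5.72) stand above the others, which range from 0.54 to 3.53.

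The 3 genes whose pattern over the 4 libraries was nearest to that of ADH7, by Euclidean distance of centred log2 values, were SRX1, HBN1 and LSO1, out of 5552 genes whose mean normalized count reached 100. By log2 fold change they held ranks 8, 9 and 10, behind ADH7 at rank 7, so the distance largely repeats that order. SRX1, which encodes sulfiredoxin, the enzyme that restores oxidized peroxiredoxin, had 167 and 129 normalized counts without and 15254 and 16039 with thiolutin (distance 0.161). HBN1, a nitroreductase-like protein, had 255 and 257 and then 18937 and 18918 (distance 0.595). LSO1, a small protein tied to the response to low iron, had 19.96 and 18.5 and then 1325 and 1197 (distance 0.783).

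For the wider pathway, 10 lists of 68 genes around the 2 reactions were compared, of which 67 genes were tested. In all 22 were higher, 26 lower and 19 did not pass the test, against background shares of 31.2% and 32.4%. With total counts as the scale 16 were higher and 41 lower. Of all 5937 genes tested 965 were higher and 3605 lower on that scale, which is the background for the list counts on it below. The untreated libraries differed from each other in some of the list genes, which were picked out after their values were seen. ALD3 had 6394 and 1803 normalized counts in untreated replicates 1 and 2, BDH1 13419 and 5417, and CAT8, the activator of gluconeogenesis, 2046 and 1003. ADH2, whose counts are uncertain for reads shared with ADH1, had 442 and 410, and its activator ADR1 had 2761 and 2346. What lay behind the difference between the untreated libraries was not tested. Leaving out untreated replicate 1 brought the log2 fold change of ALD3 to -1.08 in place of -2.28, that of NDE2 -1.18 in place of -2.10, that of ARO10 -0.68 in place of -1.41, that of CAT8 -1.19 in place of -1.80 and that of MPC3 3.18 in place of 1.99. The part of this difference between the untreated cultures in the list results was not tested.

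**Figure D5:**
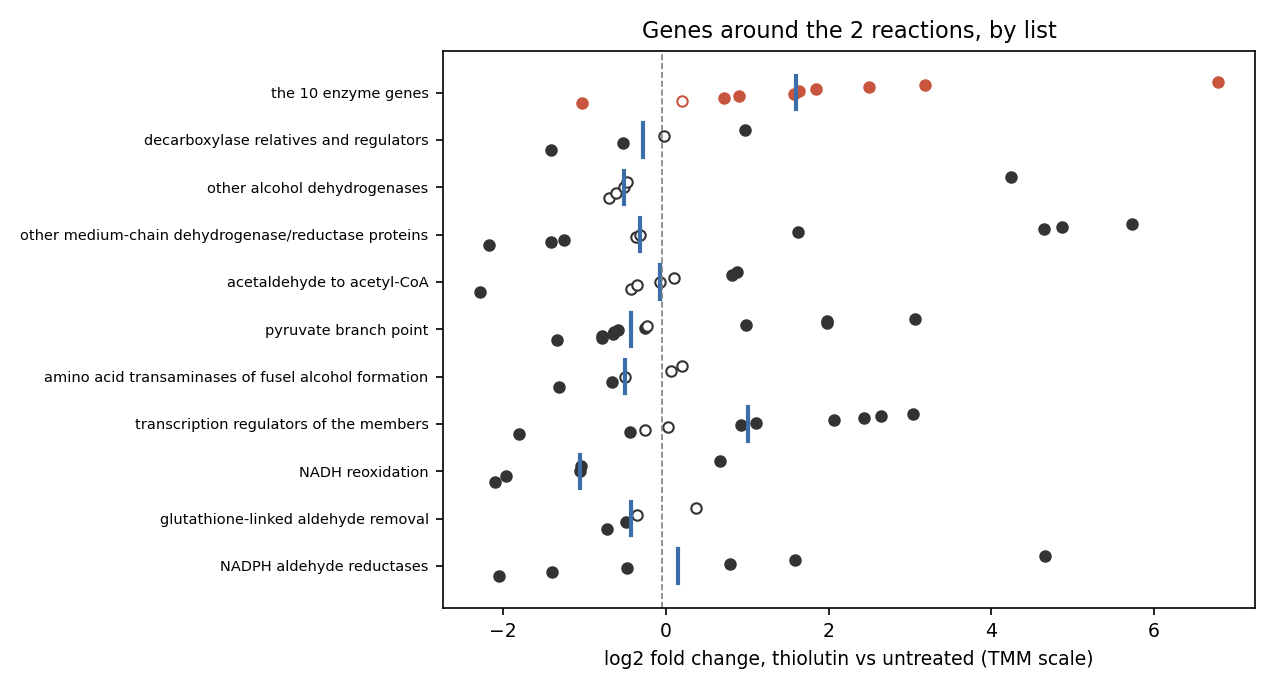
Log2 fold change (thiolutin against untreated, TMM scale) of each gene of the 10 pathway lists and of the 10 enzyme genes (red), filled where the adjusted p was under 0.05, with a blue bar at each list's median and a dashed line at the median of all genes tested (-0.04). The median of the enzyme genes is 1.61, and the list medians range from -1.05 (NADH reoxidation) to 1.02 (transcription regulators).

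Among other alcohol dehydrogenases only ADH4, a dehydrogenase of an unrelated family that holds zinc or iron, was higher of 5 tested. It had 1249 and 1177 normalized counts without and 22936 and 22901 with thiolutin (log2 fold change 4.24 ± 0.10 SE, edgeR adjusted p = 6.4e-05). SOR2 (-0.70, on only 3 to 14 reads per library), BDH2 (-0.61), BDH1 (-0.51) and XYL2 (-0.48) did not pass the test, and SOR1 had too few reads to be tested. Without untreated replicate 1 or 2 the log2 fold changes were 0.29 and -1.02 for BDH1, -0.10 and -0.98 for BDH2 and -0.18 and -0.73 for XYL2.

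Of 9 other proteins of the medium-chain dehydrogenase superfamily 4 were higher and 3 lower, with a median of -0.32. YCR102C (5.72), YML131W (4.87), YLR460C (4.65) and YNL134C (1.63) rose. YML131W had 1161 and 1155 normalized counts without and 33062 and 34631 with thiolutin, above ADH7 itself. YIM1 (-2.18), ETR1, which reduces enoyl thioesters in mitochondrial fatty acid synthesis (-1.40), and AST1 (-1.25) fell. YCR102C and YLR460C are 92.0% identical in their coding sequences, with a shared run of 131 bases, and the counts of both are uncertain for reads from it. Without untreated replicate 1 or 2 the log2 fold changes were -2.055 and -2.27 for YIM1, -1.30 and -1.49 for ETR1 and -1.30 and -1.20 for AST1.

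NADPH-dependent aldehyde reductases outside the dehydrogenase family, tested as 6 genes, divided into 3 higher and 3 lower. GRE2, a reductase of methylglyoxal and of the aldehyde of isoamyl alcohol, had 1165 and 1459 normalized counts without and 32633 and 33450 with thiolutin (log2 fold change 4.65). ARI1 was at 1.58 and YPR1 at 0.79. With total counts as the scale the list had 2 higher and 3 lower, and YPR1 (0.20) did not pass the test (edgeR adjusted p = 0.149). GCY1, a glycerol dehydrogenase, was at -2.05, the aldose reductase GRE3 at -1.40 and YDL124W at -0.48. The call of YDL124W was lost without either thiolutin library (edgeR adjusted p = 0.182 and 0.223). Around SFA1, the 4 genes of glutathione-linked aldehyde removal had 2 lower, GLO2 (-0.72) and GLO1 (-0.49), which clear methylglyoxal, and none higher. Both calls were lost without either thiolutin library (adjusted p = 0.0871 to 0.196), and without untreated replicate 1 the values were -0.47 and -0.32. YJL068C, the hydrolase that follows SFA1 in formaldehyde removal, was at -0.35 and GLO4 at 0.37, and neither passed the test.

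Upstream of the decarboxylases, the 12 genes at the pyruvate branch point had 4 higher and 7 lower, with a median of -0.42. PYC1, a pyruvate carboxylase, had 2683 and 2840 normalized counts without and 22835 and 23216 with thiolutin (log2 fold change 3.06 ± 0.10 SE, edgeR adjusted p = 7.5e-05), while its paralog PYC2 was at -1.34. MPC3 (1.99) and MPC2 (1.98), subunits of the mitochondrial pyruvate carrier, and CDC19 (0.99), the main pyruvate kinase, were higher as well. The carrier subunit MPC1 (-0.78), the pyruvate dehydrogenase subunits PDX1 (-0.78), PDA1 (-0.65), LPD1 (-0.59) and PDB1 (-0.26) and the second pyruvate kinase PYK2 (-0.64) were lower, and LAT1 (-0.23) did not pass the test. Without thiolutin replicate 1 the list had 2 higher and 3 lower, and without thiolutin replicate 2 it had 2 and 4, where MPC3 (adjusted p = 0.0578 and 0.0622) and CDC19 (0.0740 and 0.0597) were no longer called. Of the relatives and regulators of the decarboxylases, ARO10, a decarboxylase of the fusel pathway (-1.41), and THI3 (-0.53) were lower, THI2, an activator of thiamine genes, was higher (0.97), and PDC2, the activator of PDC1 and PDC5, did not pass the test (-0.02). None of these 3 calls remained without either thiolutin library. Without thiolutin replicate 1 or 2 the log2 fold changes were -1.41 and -1.41 for ARO10, -0.55 and -0.51 for THI3 and 0.77 and 1.16 for THI2. With total counts as the scale the list had 0 higher and 3 lower, and THI2 was at 0.38 (edgeR adjusted p = 0.245).

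Downstream, of 7 genes from acetaldehyde to acetyl-CoA the aldehyde dehydrogenase ALD3 was lower (-2.28), and ACS1, an acetyl-CoA synthetase (0.87), and ALD6, the cytosolic aldehyde dehydrogenase (0.82), were higher. With total counts as the scale the list had 0 higher and 4 lower. Of all 5937 genes tested 965 were higher and 3605 lower on that scale. There ALD6 was at 0.23 (edgeR adjusted p = 0.441) and ACS1 at 0.29 (adjusted p = 0.220). ALD3 and ALD6 lost their calls without either thiolutin library and ACS1 without thiolutin replicate 1. Without thiolutin replicate 1 or 2 the log2 fold changes were -2.16 and -2.41 for ALD3, 0.82 and 0.81 for ALD6 and 0.84 and 0.91 for ACS1. Without untreated replicate 1 or 2 they were -1.08 and -2.91 for ALD3, 0.50 and 1.24 for ALD6 and 1.18 and 0.63 for ACS1. Of 5 genes for transamination, the first step to the fusel aldehydes, of which 4 encode transaminases and ARO80 their transcription activator, BAT1 (-1.32) and ARO8 (-0.66) were lower, ARO9 (-0.50) did not pass the test, and 1 remained lower without either thiolutin library, where the call of ARO8 was lost (adjusted p = 0.0818 and 0.0843). Among 5 genes that reoxidize NADH by other routes, NDE2 (-2.10), NDI1 (-1.97) and NDE1 (-1.04), the NADH dehydrogenases of the mitochondrial inner membrane, and GPD1 (-1.05), a glycerol phosphate dehydrogenase, were lower and its paralog GPD2 (0.67) higher. With total counts as the scale GPD2 was at 0.08 and did not pass the test (edgeR adjusted p = 0.526), and the list had 4 lower. GPD2 lost its call without either thiolutin library and NDE2 without thiolutin replicate 2. Without thiolutin replicate 1 or 2 the log2 fold changes were 0.69 and 0.64 for GPD2 and -2.24 and -1.96 for NDE2.

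Of 10 transcription regulators known to act on the enzyme genes 6 were higher and 2 lower, with a median of 1.02. TYE7, an activator of glycolytic genes, had 3521 and 3935 normalized counts without and 30126 and 31104 with thiolutin (log2 fold change 3.04 ± 0.11 SE, edgeR adjusted p = 9.8e-05). YAP1, the oxidative stress regulator, was at 2.65, and ZAP1, the zinc regulator known to activate ADH4 and to repress ADH1 and ADH3 when zinc is scarce, at 2.44. MIG1, the glucose repressor, was at 2.06, ADR1, the activator of ADH2, at 1.11 and GCR1 at 0.92. CAT8 (-1.80) and RAP1 (-0.43) were lower, and RAP1 lost its call without either thiolutin library (adjusted p = 0.146 and 0.134). All of these are mRNA levels, and the activity of the regulators was not measured.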

How the data were processed

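Poly(A)-selected RNA of 2 untreated and 2 thiolutin-treated BY4741 cultures was analysed. According to the methods and labels, the deposited counts are raw and per gene, on build R64, and the authors tested them with DESeq2. Aligner, counting program, use of strand and treatment of multiply matching reads were not given in the sources used here. Not used were 4 columns of the authors' normalized values, their columns of fold changes, p-values and FDR and a second sheet, and rows that name no gene were left out.

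The counts were filtered with filterByExpr, scaled by TMM and tested with glmQLFTest in edgeR 4.0.16, treatment being the only term, with Benjamini-Hochberg adjustment over 5937 genes. The standard error is the size of the log2 fold change divided by the square root of F. Normalized counts are counts divided by the TMM library size relative to its mean, and reads per kb use the coding length. The fit had a biological coefficient of variation of 12.2%. This fit was first tested on simulated data that held known changes. As alternatives, libraries were scaled by DESeq2 size factors or by total counts, the Wald test of DESeq2 1.42.0 was run, the filter was dropped, the replicate number was added as a block, each library was left out, and a log2 change no smaller than 1 in size was required as well. Of the 6209 genes 6206 were paired with the R64 annotation of RefSeq by locus tag, and 5886 had the same start and end, among them all 10 enzyme genes.

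The enzyme genes, the pathway lists and the tests were chosen with earlier results of these data known. Named are the 10 genes, their neighbours, the 3 genes nearest to ADH7, and of each list up to 3 members with the largest change together with the rest where 5 or fewer were called in a direction. The 8 other genes tested within 15 kb of ADH7, the genes named for their difference between the untreated libraries, GCR1, MIG1, ADR1 and further members of the branch point list were named after their values were seen. The scripts ran in R 4.3.3 and in Python 3.11.15 with pandas 2.3.3, numpy 2.4.6 and matplotlib 3.10.9.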

Additional observations from a re-analysis of the deposited data

How the results depend on the processing

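Over all genes 1850 were higher and 1924 lower. With total counts as the scale the split was 965 higher and 3605 lower, with a change of at least 1 on the log2 scale required as well it was 931 and 613, and with 1 library left out it ranged from 1163 to 2437 higher and from 893 to 2572 lower. Of the 10 enzyme genes 8 were higher and 1 lower under the size factors of DESeq2, the Wald test of DESeq2 and no filter on low counts. With total counts 7 were higher and 2 lower, where PDC1 had a log2 fold change of 0.13 (edgeR adjusted p = 0.403) and ADH2 turned to -0.39 (adjusted p = 0.0255). With 1 library left out 7 to 9 were higher and 1 lower, the log2 fold change of PDC1 ranged from 0.63 to 0.82 and that of ADH2 from 0.14 to 0.26. The other 8 enzyme genes kept direction and call under every alternative run on single genes. The requirement of a log2 change of at least 1 was not among those. With it 6 of the 10 enzyme genes were higher and 1 lower, and ADH6 (0.90), one of these 8, fell short of it. In the pathway lists 26 genes were lower, 41 with total counts, 14 with that size of change required and 14 to 37 with 1 library left out. Without correction for length, the mean share of dehydrogenase reads was 89.2% for ADH1 and 3.95% for ADH7 with thiolutin, and 8.39% without and 1.41% with thiolutin for ADH3. The correlation of the deviations of same-numbered libraries was 0.0174. The thiolutin pair varied too little beyond sampling noise for this value to show a pairing, so whether the number pairs the libraries is not known. With the replicate block 1896 genes were higher and 1961 lower, and of the enzyme genes 8 were higher and 1 lower. When a library is left out, the lone library of its group is assumed to vary like the other pair, and the untreated pair varied more (16.7%) than the thiolutin pair (2.31%). PDC6 rests on 75 to 157 reads per library, which limits its precision.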
